A study of Mus musculus with 18 samples.

Results

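The genes described are the axon guidance ligands and receptors and the contactins, 74 genes out of 37224 in the deposited count table. They were taken by gene symbol, as all those of a fixed set of family names, and are 3 netrins (Ntn3 was not analysed here), Dcc and the 4 Unc5 receptors, 3 Slit ligands, 4 Robo receptors, 20 semaphorins, 2 neuropilins, 9 plexins, 8 ephrins, 14 Eph receptors and 6 contactins. After the filter on low counts, 72 of the 74 entered the tests in neural progenitors and 68 entered them in neuromesodermal progenitors (NMPs, cells that can form spinal cord or paraxial mesoderm).

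RNA was sequenced from cells differentiated from mouse embryonic stem cells of strain C57BL/6, with 3 libraries in each of 6 groups. The neural progenitor groups were cells expressing Hoxb1 and given SAG and doxycycline (DOX), here called Hoxb1+SAG progenitors, cells not expressing Hoxb1 and given SAG (SAG progenitors), cells expressing Hoxb1 and given DOX (Hoxb1 progenitors), and cells with none of these (control progenitors). The NMP groups were of Hoxb1 null and of wild-type genotype. Hoxb1 is an anterior Hox transcription factor that specifies the fourth rhombomere of the hindbrain, the source of facial motor neurons, and SAG is an agonist of Smoothened that activates hedgehog signalling. Only Hoxb1-expressing progenitors received DOX, so that Hoxb1 and DOX cannot be told apart. Libraries with and without SAG carry separate runs of library numbers (2533 to 2538 and 7390 to 7395), so that SAG and the library set cannot be told apart either. Clone, line and whether the 3 libraries of a group came from separate cultures were not stated in any source used here. If the libraries are technical repeats, p-values measure only the spread between them.

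Hoxb1 followed the labels. It was at 635, 597 and 612 CPM (counts scaled to library size) in Hoxb1+SAG progenitors, against 0.519, 0.396 and 0.51 CPM in SAG progenitors. Hoxb1 progenitors had 349.5, 343 and 317 CPM, against 0.369, 0.668 and 0.0725 CPM in control progenitors. Hoxb1-null NMPs had 13.7, 15.1 and 13.7 CPM, against 225, 252 and 234 CPM in wild-type NMPs, so that transcript was still counted in the null cells. Total counts per library were 22610407 to 24488882 and 22682012 to 26974315 in Hoxb1+SAG and SAG progenitors, 13301476 to 14505711 and 13589876 to 13976829 in Hoxb1 and control progenitors, and 16836409 to 19136064 and 16523276 to 21141058 in null and wild-type NMPs. The 8 neural progenitor markers summed to 2585 to 2702 CPM, 3168 to 3328 CPM, 4564 to 4605 CPM and 3812 to 4010.0 CPM in the 4 progenitor groups in the same order, and to 595 to 633 CPM and 556 to 586 CPM in null and wild-type NMPs. The 8 NMP markers summed highest in NMPs, at 1516 to 1639.9 CPM in null and 1709 to 1871 CPM in wild-type cells. The 4 progenitor groups, in the same order, had sums of 412 to 436, 471 to 478, 547 to 563 and 638 to 705 CPM. Most of the NMP sum was T, with means of 1021 and 1105 CPM in null and wild-type NMPs. Sox2 was lower in NMPs (15.3 and 12.5 CPM) than in the progenitor groups (406, 427, 544 and 641 CPM). Null NMP replicate 3 stood farther from the other null libraries (chi-square per gene 5.07 and 3.93) than these did from each other (2.33), and without it 15 guidance genes were called higher and 20 lower in null NMPs, in place of 14 and 18. Hoxb1+SAG replicate 1 likewise stood farther from the other 2 libraries of its group (3.72 and 2.43) than these did from each other (1.5), and without it 29 guidance genes were called higher and 23 lower with Hoxb1 and SAG, in place of 29 and 25. In these bulk libraries fewer cells of a type and less RNA per cell cannot be told apart.

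Growing axons and migrating cells read these families as cues. Netrin 1 and the Slits are secreted by the floor plate, the ventral midline of the neural tube: netrin draws axons through Dcc and repels them through Unc5 receptors, while Slits repel through Robo1 and Robo2. Class 3 semaphorins are secreted and are read by neuropilins with plexin partners, the membrane-bound semaphorins are read by plexins directly, and ephrins on one cell signal to Eph receptor kinases on its neighbour, which keeps rhombomeres apart in the hindbrain. Contactins are cell-surface adhesion molecules of the immunoglobulin family, tethered by a lipid anchor and found on axons.

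Most of these genes were expressed. At least 1 CPM on average was reached by 66, 67, 70 and 72 of the 74 in Hoxb1+SAG, SAG, Hoxb1 and control progenitors, and by 66 and 65 in null and wild-type NMPs. Together they took 0.545% to 0.551%, 0.59% to 0.604%, 0.606% to 0.622% and 0.592% to 0.595% of all counts in the same order of progenitor groups, and 0.372% to 0.388% and 0.391% to 0.396% in null and wild-type NMPs. Coordinates given with genes are those of GENCODE vM21 on GRCm38, the same assembly as mm10. Levels of different genes can be compared only per length, as RPKM (CPM per kilobase of summed exons). On that scale Ntn1 led in Hoxb1+SAG progenitors (113 ± 2.78 RPKM, SD, n = 3) and in SAG progenitors (203 ± 4.27 RPKM), followed by Plxnb2 in the first (54.3 ± 1.69 RPKM) and Efnb3 in the second (71.6 ± 1.86 RPKM), and their library ranges did not overlap those of Ntn1. Plxnb2, a receptor of class 4 semaphorins, led in Hoxb1 and control progenitors (67.6 ± 1.19 and 75.3 ± 0.295 RPKM), followed by Efnb2 (58.3 ± 1.39 and 65.5 ± 1.09 RPKM), again with no overlap. In NMPs Epha1 led (77.2 ± 3.46 RPKM in null and 88.9 ± 0.189 RPKM in wild-type cells), followed by Ephb4 (47.7 ± 2.2 and 51.4 ± 1.16 RPKM), and behind it Plxna1, Plxnb2, Ntn1 and Epha2 overlapped in their library ranges in null cells. Dcc, Cntn4, Cntn5, Cntn6, Sema3d and Plxnb3 were too low in NMPs to be tested, with at most 22 counts in any library, and Ntn5 and Plxnb3 were too low in neural progenitors, with at most 12. Dcc had 2 to 6 counts in each NMP library and 474 to 2138 in each progenitor library.

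**Figure D1:**
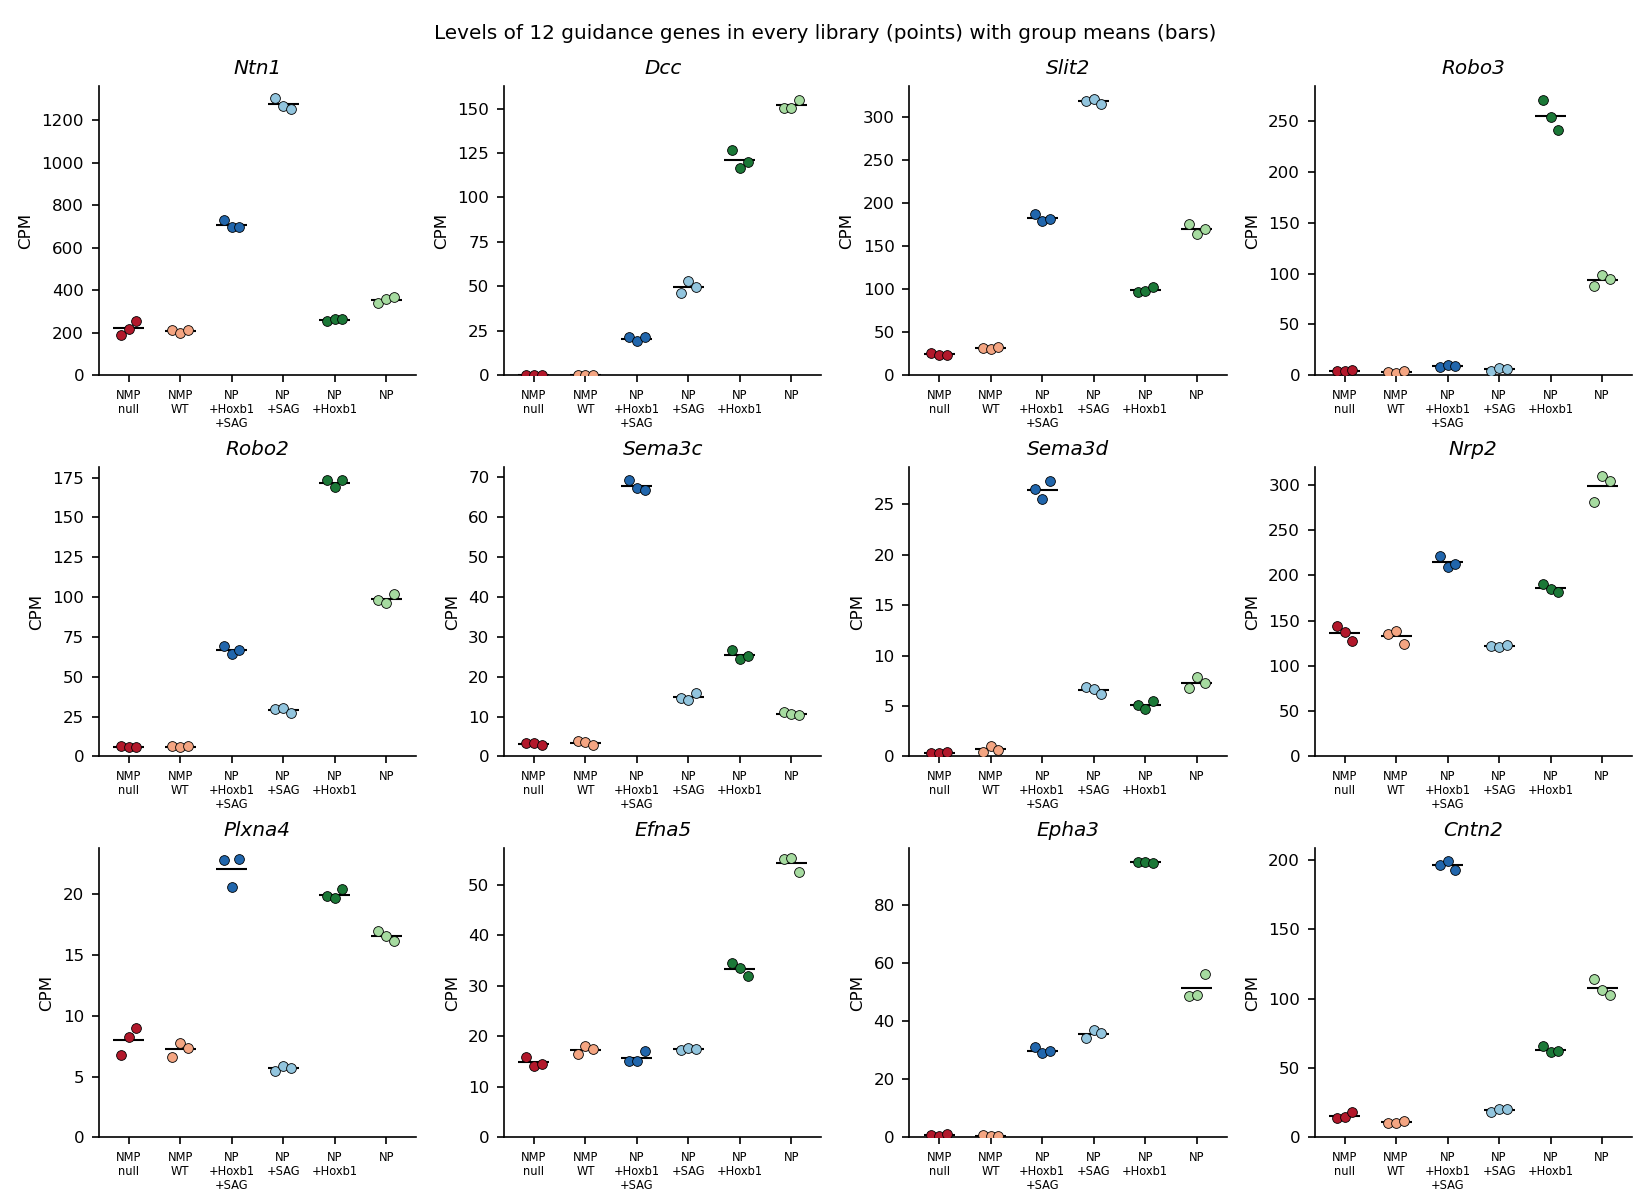
Level in CPM (linear axes starting at 0) of 12 guidance genes in all 18 libraries, with points for libraries and bars for group means. NMP is neuromesodermal progenitor, WT wild type and NP neural progenitor. Cntn2 and Sema3d stand highest in Hoxb1+SAG progenitors, Robo3 in Hoxb1 progenitors and Ntn1 in SAG progenitors.

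Expression of Hoxb1 went with changes in most of the tested guidance genes. For 16 of the 50 called in both settings the direction was opposite with and without SAG (32%, against 22.3% over all genes). That contrast of settings runs across the library sets. With SAG, Cntn2, Sema3c, Sema3d, Plxna4, Robo2 and Sema3a rose at least 2-fold and Dcc, Epha1, Cntn1 and Sema3e fell at least 2-fold, which is 6 up and 4 down of 72, against 2.65% and 2.37% of all tested genes. Without SAG, Robo3, Epha8 and Sema3c rose and Robo4 and Cntn6 fell at least 2-fold, against 2.85% and 3.04% of all genes. At an adjusted p under 0.05, 29 of 72 were higher and 25 lower with Hoxb1 in the presence of SAG, against 21.4% and 21.9% of all 16238 tested genes (43.4% either way). In the absence of SAG, 33 were higher and 26 lower, against 24.1% and 22.1% of all genes (46.2% either way). The median change lay near 0 in both comparisons (0.01 with and 0.07 without SAG, on the log2 scale), as it did over all genes (0.00 and 0.00). The median size of change was 0.40 and 0.34, against 0.14 and 0.19 over all genes. The guidance genes were also counted more deeply, with a median of 43.8 CPM in progenitors against 27 CPM over all tested genes, and the part of depth in these shares was not tested.

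**Figure D2:**
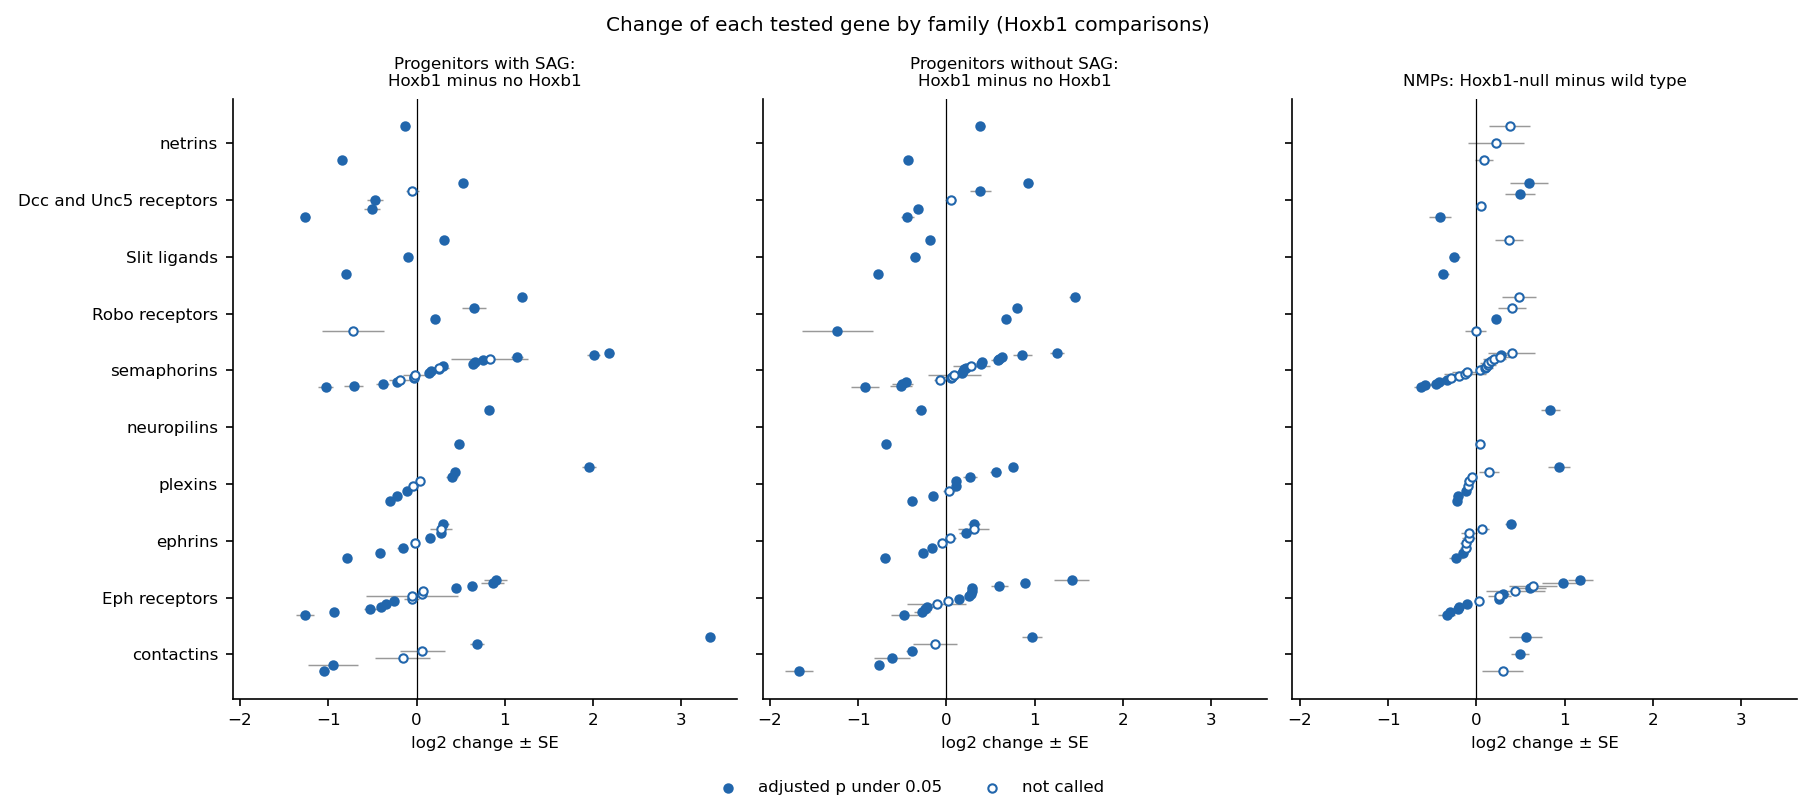
Log2 change with its SE for each tested guidance gene by family, for Hoxb1 minus no Hoxb1 with SAG, Hoxb1 minus no Hoxb1 without SAG, and Hoxb1-null minus wild-type NMPs. Filled points passed an adjusted p under 0.05. The widest changes are in progenitors, with Cntn2 at 3.33 with SAG, and NMP changes lie between -0.63 and 1.18.

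Among contactins, Cntn2 (TAG-1, an adhesion molecule of early outgrowing axons, including facial motor neurons) showed the largest change of all 74 genes with Hoxb1. Cntn2 (ENSMUSG00000053024, chromosome 1, 132509425 to 132542940, minus strand) was at 196, 199 and 192 CPM in Hoxb1+SAG progenitors, against 18.1, 20.2 and 20.1 CPM in SAG progenitors. All 3 Hoxb1+SAG libraries lay far above the SAG libraries, 10.0-fold higher (log2 change 3.33, SE 0.0445, edgeR adjusted p = 6.14e-41). Without SAG the order was the opposite, with 65.6, 61.9 and 62.4 CPM in Hoxb1 progenitors, against 114, 106 and 102 CPM in control progenitors (log2 change -0.77, SE 0.0447, edgeR adjusted p = 2.91e-18). The groups did not overlap in either comparison. The difference of the effects, with SAG minus without SAG, was 4.09 (SE 0.0636, edgeR adjusted p = 9.54e-38).

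The other contactins moved less or started lower. Cntn1, which pairs with contactin-associated proteins on axons, fell with Hoxb1 in both settings, to 15.5 ± 0.301 CPM in Hoxb1+SAG progenitors, against 32.1 ± 0.318 CPM in SAG progenitors (SD, n = 3 each, log2 change -1.05, SE 0.0588, edgeR adjusted p = 7.21e-19), and to 32.2 ± 2.42 CPM in Hoxb1 progenitors, against 42.3 ± 2.01 CPM in control progenitors (log2 change -0.39, SE 0.0599, edgeR adjusted p = 5.84e-07). Cntn3 rose in both, with 16.1 ± 0.716 CPM in Hoxb1+SAG progenitors, against 10.0 ± 0.955 CPM in SAG progenitors (log2 change 0.69, SE 0.0813, edgeR adjusted p = 2.84e-09), and 13.9 ± 1.18 CPM in Hoxb1 progenitors, against 7.08 ± 1.15 CPM in control progenitors (log2 change 0.97, SE 0.113, edgeR adjusted p = 1.57e-09). Cntn6 fell without SAG, with 3.26, 3.02 and 3.3 CPM in Hoxb1 progenitors, against 10.3, 9.5 and 10.7 CPM in control progenitors (log2 change -1.67, SE 0.155, edgeR adjusted p = 4.55e-12), and no library of one group reached the other. With SAG, Cntn6 had 6 to 20 counts in Hoxb1+SAG and 17 to 35 counts in SAG libraries, and the groups overlapped. That call (log2 change -0.95, edgeR adjusted p = 0.00617) was lost without Hoxb1+SAG replicate 1 (adjusted p = 0.066). Cntn5 fell without SAG (log2 change -0.62, edgeR adjusted p = 0.0134), which DESeq2 did not call and which was lost without control replicate 1 or Hoxb1 replicate 1 (adjusted p up to 0.064), and Cntn4 passed in neither comparison (log2 change -0.16 with and -0.13 without SAG).

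Ntn1 and its receptor Dcc both fell with Hoxb1. Ntn1 (ENSMUSG00000020902, chromosome 11, 68209364 to 68400823, minus strand), the secreted attractant of the floor plate, was at 729, 699 and 699.9 CPM in Hoxb1+SAG progenitors, against 1305, 1266 and 1254 CPM in SAG progenitors. It stood at 257, 263 and 266 CPM in Hoxb1 progenitors, against 341, 357 and 368 CPM in control progenitors. Every Hoxb1 library lay below its comparison group, and the fall was 1.8-fold with SAG (log2 change -0.85, SE 0.0297, edgeR adjusted p = 8.8e-26) and 1.36-fold without SAG (log2 change -0.44, SE 0.0328, edgeR adjusted p = 6.94e-15), a difference of -0.41 (SE 0.0441, edgeR adjusted p = 5.32e-10). Summed floor plate markers were lower too: the 6 markers summed to 1232 to 1271 CPM in Hoxb1+SAG and 1470.4 to 1500.4 CPM in SAG progenitors, and to 544 to 549.8 CPM in Hoxb1 and 629 to 649 CPM in control progenitors, with none at 0 in all libraries of a group, and their part in the Ntn1 values was not tested. Of these 6 genes 4 fell and 2 rose with Hoxb1 in each setting, Nkx6-1 rising in both (log2 changes 2.12 with and 1.58 without SAG). The floor plate factor Foxa2 rose with SAG (0.29) and fell without SAG (-1.14). Spon1 fell with SAG (-1.16) and rose without SAG (0.59). With SAG the lower sum rested largely on Spon1 (186 CPM in Hoxb1+SAG and 416 CPM in SAG progenitors) and Sulf1 (512 and 695 CPM). Dcc, the attractive netrin receptor, had 21.6, 19.1 and 21.4 CPM in Hoxb1+SAG progenitors, against 46.1, 53 and 49.8 CPM in SAG progenitors, and 127, 117 and 119.8 CPM in Hoxb1 progenitors, against 150.5, 150.3 and 155 CPM in control progenitors. The groups did not overlap, and Dcc fell 2.41-fold with SAG (log2 change -1.27, SE 0.0535, edgeR adjusted p = 1e-22) and 1.25-fold without SAG (log2 change -0.33, SE 0.0424, edgeR adjusted p = 2.61e-08).

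Unc5 receptors, which turn netrin into a repellent, did not move together. Unc5b rose with Hoxb1 in both settings, at 82.5 ± 2.75 CPM in Hoxb1+SAG progenitors, against 57.4 ± 1.71 CPM in SAG progenitors (log2 change 0.52, SE 0.0414, edgeR adjusted p = 5.42e-14), and at 94.1 ± 4.62 CPM in Hoxb1 progenitors, against 49.4 ± 2.46 CPM in control progenitors (log2 change 0.93, SE 0.0482, edgeR adjusted p = 5.4e-20). Unc5a fell with SAG (-0.51) and rose without SAG (0.38, log2 changes), Unc5d fell with SAG (-0.47) and was not called without SAG (0.05), and Unc5c was not called with SAG (-0.05) and fell without SAG (-0.44). The difference of the Hoxb1 effects was called for each of the 4 and for Dcc. Ntn4, a netrin of basement membranes, was at 34.8 ± 1.1 CPM in Hoxb1+SAG progenitors, against 38 ± 1.25 CPM in SAG progenitors (log2 change -0.13), and at 54.7 ± 1.56 CPM in Hoxb1 progenitors, against 41.9 ± 1.02 CPM in control progenitors (log2 change 0.38), with a difference of -0.51 (SE 0.0701, edgeR adjusted p = 1.21e-07).

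With SAG 2 of the 3 Slit ligands fell with Hoxb1 and 1 rose, without SAG all 3 fell, and Robo1, Robo2 and Robo3 rose in both settings. Slit2 (ENSMUSG00000031558, chromosome 5, 47983155 to 48306282), a floor plate repellent, had 187, 179 and 182 CPM in Hoxb1+SAG progenitors, against 319, 321 and 315 CPM in SAG progenitors, and 96.4, 97.7 and 103 CPM in Hoxb1 progenitors, against 176, 164 and 169.7 CPM in control progenitors. Every library with Hoxb1 lay below every library of its comparison group. The log2 changes were -0.80 with and -0.78 without SAG (edgeR adjusted p = 2.31e-24 and 2.88e-21), and the test of the difference gave -0.02 (SE 0.0483, edgeR adjusted p = 0.761). Slit1 fell slightly in both (-0.10 and -0.19), the call with SAG being lost without SAG replicate 2 (adjusted p = 0.121). Slit3 rose with SAG (84.1 ± 0.666 CPM in Hoxb1+SAG progenitors, against 67.9 ± 2.78 CPM in SAG progenitors, log2 change 0.31, SE 0.039, edgeR adjusted p = 1.55e-08) and fell without SAG (32.5 ± 1.14 CPM in Hoxb1 progenitors, against 41.7 ± 1.57 CPM in control progenitors, log2 change -0.36, SE 0.0559, edgeR adjusted p = 7.98e-07).

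Robo3 (ENSMUSG00000032128, chromosome 9, 37415669 to 37433163), which in mammals allows commissural axons to cross the midline, was the largest rise without SAG. Its values were 271, 254 and 241 CPM in Hoxb1 progenitors, against 87.5, 98.1 and 94.5 CPM in control progenitors. The 3 Hoxb1 libraries all lay more than 100 CPM above the highest control library, a 2.73-fold rise (log2 change 1.45, SE 0.062, edgeR adjusted p = 9.88e-12). With SAG the gene was low in both groups but still higher with Hoxb1, at 8.45, 9.83 and 9.47 CPM in Hoxb1+SAG progenitors, against 4.5, 7.03 and 5.99 CPM in SAG progenitors (log2 change 0.65, SE 0.137, edgeR adjusted p = 0.00115). Robo2 (ENSMUSG00000052516, chromosome 16, 73892306 to 74411825), a Slit receptor, had 69.2, 64.4 and 66.9 CPM in Hoxb1+SAG progenitors, against 29.7, 30.5 and 27.3 CPM in SAG progenitors, and 173, 169 and 173 CPM in Hoxb1 progenitors, against 98.3, 96.4 and 102 CPM in control progenitors. Without overlap in either setting, Robo2 rose 2.29-fold with SAG (log2 change 1.19, SE 0.0443, edgeR adjusted p = 5.68e-25) and 1.74-fold without SAG (log2 change 0.80, SE 0.0391, edgeR adjusted p = 9.11e-21). Robo1, the other main Slit receptor, rose less, to 139 ± 4.28 CPM in Hoxb1+SAG progenitors, against 119.6 ± 6.26 CPM in SAG progenitors (log2 change 0.21), and to 308 ± 6.65 CPM in Hoxb1 progenitors, against 192 ± 7.74 CPM in control progenitors (log2 change 0.68). Robo4, known from endothelium, went the other way at a low level without SAG (0.46 ± 0.134 CPM in Hoxb1 progenitors, against 1.1 ± 0.325 CPM in control progenitors, log2 change -1.24, SE 0.406, edgeR adjusted p = 0.011), a call lost without control replicate 3 or Hoxb1 replicate 2 (adjusted p up to 0.0717). The 6 endothelial markers summed to 11.9 to 14.2 CPM in Hoxb1 and 28.1 to 30.3 CPM in control progenitors, with none at 0 in all libraries of a group. Of the 5 tested, 2 fell (Kdr and Pecam1) and the other 3 were not called. The part of these markers in the Robo4 values was not tested.

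Summed markers of postmitotic neurons were higher with Hoxb1 in both settings. The 10 markers summed to 1542 to 1591 CPM in Hoxb1+SAG and 1031 to 1063 CPM in SAG progenitors, and to 2543 to 2690.0 CPM in Hoxb1 and 1728 to 1797 CPM in control progenitors, with none at 0. Of the 10, 6 rose and 3 fell with SAG, and 8 rose and 1 fell without SAG. With SAG the higher sum rested largely on Nefl, at 356 ± 14.5 CPM in Hoxb1+SAG and 39.8 ± 3.53 CPM in SAG progenitors. In that setting Dcx was not called (log2 change -0.02), and Map2, Elavl3 and Rbfox3 fell. Isl1, a factor of motor neurons, was at 45.1, 46.1 and 48.3 CPM in Hoxb1+SAG progenitors, against 21.7, 19.7 and 21.4 CPM in SAG progenitors, the comparison in which Cntn2 rose. Without SAG, Isl1 was not called with Hoxb1 (log2 change -0.23) and Cntn2 fell (-0.77). SAG in the absence of Hoxb1 went with a rise of Isl1 (1.62) and a fall of Cntn2 (-2.46). SAG in the presence of Hoxb1 went with rises of both (3.00 and 1.63). The part of neuron number in the Robo and Cntn2 values was not tested. The 6 pluripotency markers summed to 284 to 311 CPM in Hoxb1+SAG and 329.7 to 363 CPM in SAG progenitors, where 2 rose and 2 fell, and to 119 to 137 CPM in Hoxb1 and 224 to 256 CPM in control progenitors, where all 6 fell. None was at 0, and their part in the values of guidance genes was not tested.

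Secreted class 3 semaphorins held several of the strongest rises with SAG. Sema3c (ENSMUSG00000028780, chromosome 5, 17574281 to 17730268, plus strand), which guides neural crest and axons through either neuropilin, was at 69.2, 67.4 and 66.7 CPM in Hoxb1+SAG progenitors, against 14.8, 14.2 and 15.9 CPM in SAG progenitors, and at 26.6, 24.4 and 25.1 CPM in Hoxb1 progenitors, against 11.1, 10.7 and 10.4 CPM in control progenitors. All Hoxb1 libraries lay above all libraries of their comparison group, and Sema3c rose 4.54-fold with SAG (log2 change 2.18, SE 0.052, edgeR adjusted p = 8.39e-32) and 2.37-fold without SAG (log2 change 1.25, SE 0.0785, edgeR adjusted p = 3.35e-17). Sema3d (ENSMUSG00000040254, chromosome 5, 12383166 to 12588943) rose only in the presence of SAG, with 26.5, 25.5 and 27.4 CPM in Hoxb1+SAG progenitors, against 6.84, 6.7 and 6.16 CPM in SAG progenitors (log2 change 2.01, SE 0.0736, edgeR adjusted p = 3.49e-25). It fell without SAG, with 5.11, 4.72 and 5.46 CPM in Hoxb1 progenitors, against 6.78, 7.87 and 7.32 CPM in control progenitors (log2 change -0.52, SE 0.125, edgeR adjusted p = 0.000638), and the difference of the effects was 2.53 (SE 0.147, edgeR adjusted p = 6.74e-18). The groups did not overlap in either case.

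Sema3a, the repellent read by Nrp1, rose in both settings, with 21.1 ± 1.92 CPM in Hoxb1+SAG progenitors, against 9.61 ± 0.494 CPM in SAG progenitors (log2 change 1.14, SE 0.0723, edgeR adjusted p = 4.78e-17), and 38.6 ± 1.26 CPM in Hoxb1 progenitors, against 25.5 ± 0.801 CPM in control progenitors (log2 change 0.60, SE 0.067, edgeR adjusted p = 6.04e-10). Sema3f, read by Nrp2, rose with SAG (75.9 ± 3.63 CPM in Hoxb1+SAG progenitors, against 47.9 ± 1.18 CPM in SAG progenitors, log2 change 0.66) and fell without SAG (52.7 ± 4.77 CPM in Hoxb1 progenitors, against 72.2 ± 3.27 CPM in control progenitors, log2 change -0.46), a difference of 1.12 (SE 0.0712, edgeR adjusted p = 2.81e-16). Sema3e, which unlike its relatives binds Plxnd1 directly, fell in both, with 8.25 ± 1.03 CPM in Hoxb1+SAG progenitors, against 16.8 ± 0.731 CPM in SAG progenitors (log2 change -1.03, SE 0.0846, edgeR adjusted p = 1.58e-13), and 3.28 ± 0.503 CPM in Hoxb1 progenitors, against 6.21 ± 0.77 CPM in control progenitors (log2 change -0.92, SE 0.159, edgeR adjusted p = 5.41e-06). Sema3b and Sema3g were not called in either comparison. The 9 mesenchymal markers, a class of cells in which class 3 semaphorins are often found, summed to 2297 to 2489 CPM in Hoxb1+SAG and 2274 to 2305 CPM in SAG progenitors (6 rose and 1 fell), and to 1009 to 1047 CPM in Hoxb1 and 482 to 508 CPM in control progenitors (5 rose and 1 fell), with none at 0. Their part in the semaphorin values was not tested. Without SAG the higher mesenchymal sum rested largely on Col1a2, at 531 ± 14.8 CPM in Hoxb1 and 133 ± 2.26 CPM in control progenitors. In that setting Dcn, Lum and Twist1 were not called, and Prrx1 fell. Sema3a, Sema3c, Sema3d and Sema3e all lie on chromosome 5, where some rose and others fell. Of the 13 membrane-bound semaphorins, 6 rose and 3 fell with SAG, against 21.4% and 21.9% of all tested genes. Without SAG 9 rose and 1 fell, against 24.1% and 22.1%. Log2 changes of the 13 lay between -0.71 and 0.75 with SAG and between -0.50 and 0.86 without SAG. Sema6d, a ligand of class A plexins, rose in both (0.75 and 0.63), and Sema6b fell with SAG (-0.39) and rose without SAG (0.58). Sema7a, the ligand of Plxnc1, rose without SAG (log2 change 0.86), and Sema5a rose in both (0.63 and 0.22). Sema4a fell with SAG (-0.71) and Sema4f without SAG (-0.50), and Sema4d and Sema4g passed in neither.

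Both neuropilins rose with Hoxb1 when SAG was present and fell when it was absent. Nrp2 (ENSMUSG00000025969, chromosome 1, 62703285 to 62818695) was at 221, 209.5 and 212 CPM in Hoxb1+SAG progenitors, against 122, 121 and 123 CPM in SAG progenitors (log2 change 0.82, SE 0.0342, edgeR adjusted p = 4.04e-23). In the absence of SAG it was at 191, 185 and 182 CPM in Hoxb1 progenitors, against 280.5, 310.2 and 305 CPM in control progenitors (log2 change -0.68, SE 0.0351, edgeR adjusted p = 4.27e-20), with no overlap in either case. Nrp1 was at 60.6 ± 3.19 CPM in Hoxb1+SAG progenitors, against 43.6 ± 1.91 CPM in SAG progenitors (log2 change 0.48, SE 0.0471, edgeR adjusted p = 3.02e-11), and at 31 ± 2.24 CPM in Hoxb1 progenitors, against 37.9 ± 0.98 CPM in control progenitors (log2 change -0.29, SE 0.0629, edgeR adjusted p = 0.00017). The differences of the effects were 1.50 (SE 0.049, edgeR adjusted p = 3.08e-26) for Nrp2 and 0.77 (SE 0.0786, edgeR adjusted p = 1.28e-10) for Nrp1. Of 8 tested plexins, 3 rose and 3 fell with SAG, against 21.4% and 21.9% of all tested genes. Without SAG 5 rose and 2 fell, against 24.1% and 22.1%. Plxna4 (ENSMUSG00000029765, chromosome 6, 32145926 to 32588192), the signalling partner of Nrp1 for Sema3a, had 22.8, 20.6 and 22.9 CPM in Hoxb1+SAG progenitors, against 5.49, 5.87 and 5.69 CPM in SAG progenitors, a 3.87-fold rise (log2 change 1.95, SE 0.0763, edgeR adjusted p = 3.25e-24). The rise without SAG was small (19.9 ± 0.4 CPM in Hoxb1 progenitors, against 16.6 ± 0.4 CPM in control progenitors, log2 change 0.27, SE 0.0781, edgeR adjusted p = 0.00416). Plxna2 rose in both settings (0.43 and 0.75 on the log2 scale), Plxnd1 rose without SAG (0.56) and was not called with SAG (-0.04), and Plxnc1 fell in both (-0.30 and -0.39). Plxna3 rose with SAG (0.40), and the log2 changes of Plxna1, Plxnb1 and Plxnb2 were at most 0.22 in size.

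Of 8 ephrins, 3 rose and 3 fell with Hoxb1 in the presence of SAG, against 21.4% and 21.9% of all tested genes. Without SAG 2 rose and 3 fell, against 24.1% and 22.1%. Efnb3, a transmembrane ephrin of the midline, fell to 132 ± 2.15 CPM in Hoxb1+SAG progenitors, against 228 ± 5.9 CPM in SAG progenitors (log2 change -0.79, SE 0.0343, edgeR adjusted p = 1.33e-22), and to 147 ± 4.28 CPM in Hoxb1 progenitors, against 177 ± 10.5 CPM in control progenitors (log2 change -0.26, SE 0.0377, edgeR adjusted p = 1.56e-07). Efna5, a lipid-anchored ephrin, fell without SAG, with 34.6, 33.6 and 32 CPM in Hoxb1 progenitors, against 55.2, 55.2 and 52.5 CPM in control progenitors (log2 change -0.70, SE 0.0568, edgeR adjusted p = 8.37e-14), and the groups did not overlap. Efna5 shares 59.9% of its exon length with an unnamed gene on the same strand that had 0 counts. With SAG its small fall (-0.16, edgeR adjusted p = 0.0426) was lost in 8 alternatives, among them DESeq2 and the 6 libraries alone (adjusted p up to 0.164). Efnb2 fell in both (-0.42 and -0.17). Efnb1 was not called (-0.02 with and -0.05 without SAG). Efna1, Efna3 and Efna4, which lie within 100 kb of each other on chromosome 3, had log2 changes of 0.28, 0.30 and 0.27 with SAG and of 0.31, 0.31 and 0.23 without SAG, of which those of Efna1 did not pass.

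Eph receptors split by gene and by SAG. With SAG, 4 of 14 rose and 6 fell, against 21.4% and 21.9% of all tested genes. Without SAG 8 rose and 4 fell, against 24.1% and 22.1%. Epha2 (ENSMUSG00000006445, chromosome 4, 141301240 to 141329384), whose expression in the fourth rhombomere is known to be driven by Hox and Pbx factors in mice, was at 49.2, 48.4 and 46.1 CPM in Hoxb1+SAG progenitors, against 29.4, 32.9 and 30.2 CPM in SAG progenitors (log2 change 0.63, SE 0.051, edgeR adjusted p = 9.81e-14). All Hoxb1+SAG libraries lay above all SAG libraries. Without SAG it was slightly lower, at 24, 24.1 and 25.5 CPM in Hoxb1 progenitors, against 28.6, 30.7 and 26.5 CPM in control progenitors (log2 change -0.22, SE 0.0691, edgeR adjusted p = 0.00736), a call lost without control replicate 2 (adjusted p = 0.0615). The groups did not overlap there either, and the difference of the effects was 0.85 (SE 0.0859, edgeR adjusted p = 8.27e-11). Epha3, a receptor for A-type ephrins, rose without SAG to 94.7, 94.7 and 94.5 CPM in Hoxb1 progenitors, against 48.6, 48.9 and 56.1 CPM in control progenitors (log2 change 0.89, SE 0.0499, edgeR adjusted p = 8.67e-19), and with SAG it fell slightly (log2 change -0.26). Ephb1, a receptor for B-type ephrins, fell with SAG, at 33.6, 34.9 and 34.9 CPM in Hoxb1+SAG progenitors, against 67.9, 65 and 65.4 CPM in SAG progenitors (log2 change -0.94, SE 0.0469, edgeR adjusted p = 1.58e-20), and rose a little without SAG (log2 change 0.29). Epha1 fell in both, with 5.11 ± 0.447 CPM in Hoxb1+SAG progenitors, against 12.2 ± 0.947 CPM in SAG progenitors (log2 change -1.26, SE 0.0992, edgeR adjusted p = 3.95e-14), and 4.49 ± 0.704 CPM in Hoxb1 progenitors, against 6.23 ± 0.845 CPM in control progenitors (log2 change -0.48, SE 0.149, edgeR adjusted p = 0.00764). Its exons overlap the antisense gene Zyx over 160 bases, and no source used here states whether counting used strand. Epha8 rose at a low level in both, with 5.44 ± 0.237 CPM in Hoxb1+SAG progenitors, against 2.97 ± 0.773 CPM in SAG progenitors (log2 change 0.86), and 4.78 ± 0.329 CPM in Hoxb1 progenitors, against 1.79 ± 0.174 CPM in control progenitors (log2 change 1.42). Epha10 rose in both (0.89 and 0.60) and Ephb6 fell in both (-0.52 and -0.27), Ephb2 fell with SAG (-0.35) and rose without SAG (0.29), and Ephb4 and Epha6 passed in neither.

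Epha4 and Epha7 mark rhombomeres in the hindbrain, where Eph signalling keeps neighbouring segments apart. Epha4 rose with SAG (75.3 ± 3.71 CPM in Hoxb1+SAG progenitors, against 55.4 ± 1.81 CPM in SAG progenitors, log2 change 0.44, SE 0.0402, edgeR adjusted p = 2.94e-12) and slightly without SAG (87 ± 1.49 CPM in Hoxb1 progenitors, against 79.1 ± 0.785 CPM in control progenitors, log2 change 0.14, SE 0.0435, edgeR adjusted p = 0.00876), the second call being lost in the fit of all 18 libraries (adjusted p = 0.0601). Epha7 fell with SAG (61.7 ± 0.946 CPM in Hoxb1+SAG progenitors, against 81.4 ± 3.96 CPM in SAG progenitors, log2 change -0.40, SE 0.0391, edgeR adjusted p = 2.16e-11) and rose without SAG (109 ± 2.6 CPM in Hoxb1 progenitors, against 91 ± 2.82 CPM in control progenitors, log2 change 0.26, SE 0.0413, edgeR adjusted p = 1.45e-06).

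The effect of Hoxb1 differed by SAG in 40 of the 72 tested guidance genes, with 16 differences upward and 24 downward, against 16.8% and 18.6% of all tested genes (35.5% either way). It was at least 2-fold upward in 5 genes and downward in 2, against 2.59% and 2.66% of all genes. The largest were those of Cntn2, Sema3d, Plxna4 and Nrp2 upward and of Ephb1 and Epha3 downward. The difference was 1.68 (SE 0.112, edgeR adjusted p = 4.34e-16) for Plxna4, -1.23 (SE 0.0718, edgeR adjusted p = 8.11e-18) for Ephb1 and -1.14 (SE 0.0722, edgeR adjusted p = 9.58e-17) for Epha3. 16 genes were called in opposite directions with and without SAG, among 50 called in both, which is 32%, and over all genes 911 of 4091 were (22.3%). Of the 16, 7 rose with and fell without SAG (Cntn2, Epha2, Nrp1, Nrp2, Sema3d, Sema3f and Slit3), and 9 fell with and rose without SAG (Epha3, Epha7, Ephb1, Ephb2, Ntn4, Plxnb1, Sema4b, Sema6b and Unc5a). 20 genes rose and 14 fell in both settings. These 2 Hoxb1 comparisons share no library, but the difference between them runs across the library sets and cannot be told apart from them.

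**Figure D3:**
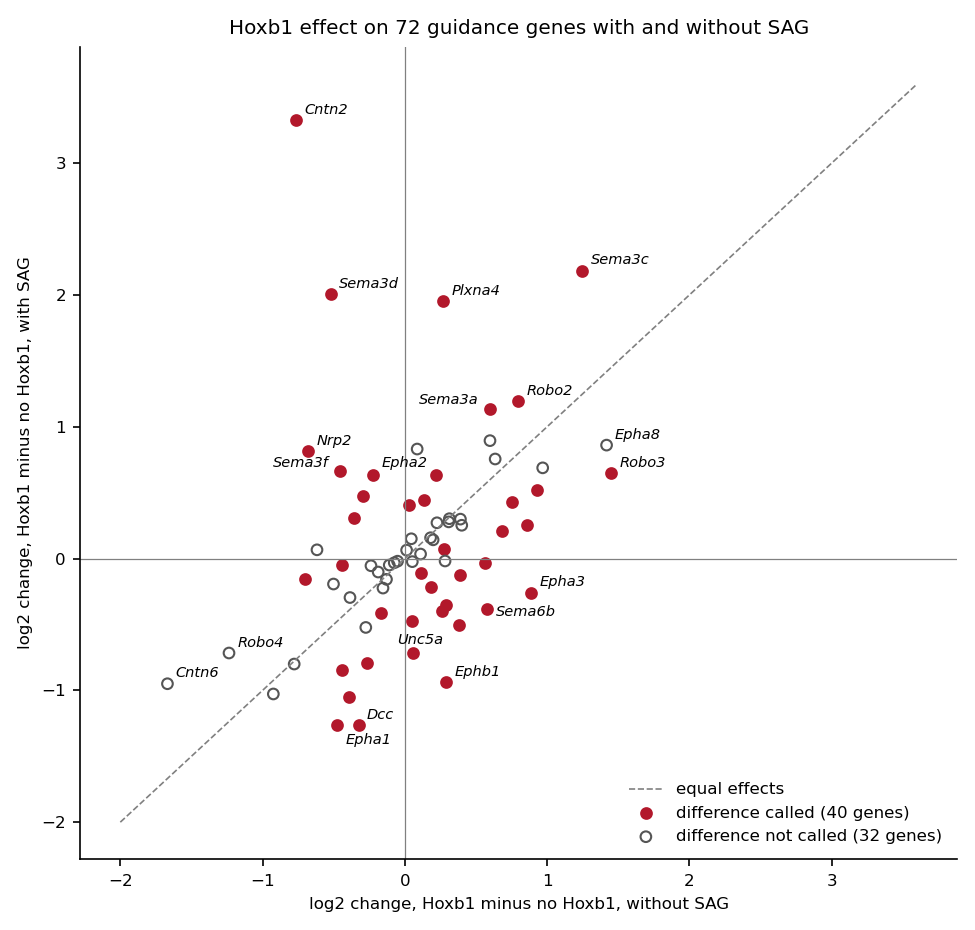
Log2 change with Hoxb1 in the presence of SAG (vertical axis) against that in its absence (horizontal axis) for the 72 tested guidance genes, with filled points where the difference passed an adjusted p under 0.05. Points on the dashed line have equal effects. Cntn2 (3.33 with and -0.77 without SAG), Sema3d (2.01 and -0.52) and Nrp2 (0.82 and -0.68) lie in the upper left part.

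Promoters of Cntn2 and Robo3 are shown because these carried the largest rise with Hoxb1 in 1 setting each. Genes that hold a searched motif and rose with Hoxb1 in both settings were Cntn3 and Sema6d (Hox and Pbx pair) and Plxna2, Robo2, Sema3c, Sema5a and Sema6c (GLI core). Of these, Sema3c is shown as the one with the largest changes. Cntn3 is shown as the one with the Hox and Pbx pair at the gene's outermost start. The other holders of a motif were Cntn1, which fell with Hoxb1, Cntn4 and Sema3g, called in neither setting, and Sema4a, which fell with SAG present. The windows shown were picked by these changes, so they do not show how often a motif goes with a rise. The windows run from 250 bases before to 50 after a start annotated in RefSeq (build GRCm38.p6), and at least 1 was found for 64 of the 74 genes. Some genes have several, and not every start is the outermost one. Capitals mark matches, on either strand, to TGATNNAT (a pair of Hox and Pbx sites) or CCACCCA (the core of the GLI motif, TGGGTGG on the other strand), which do not overlap each other in these windows.
Cntn2 promoter, chr1:132542891-132543190, minus strand: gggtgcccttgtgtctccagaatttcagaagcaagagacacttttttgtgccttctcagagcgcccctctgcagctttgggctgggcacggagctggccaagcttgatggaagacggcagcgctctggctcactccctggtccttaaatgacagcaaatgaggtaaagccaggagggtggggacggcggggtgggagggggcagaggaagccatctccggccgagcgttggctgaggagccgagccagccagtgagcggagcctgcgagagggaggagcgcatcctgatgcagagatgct
Robo3 promoter, chr9:37433126-37433425, minus strand: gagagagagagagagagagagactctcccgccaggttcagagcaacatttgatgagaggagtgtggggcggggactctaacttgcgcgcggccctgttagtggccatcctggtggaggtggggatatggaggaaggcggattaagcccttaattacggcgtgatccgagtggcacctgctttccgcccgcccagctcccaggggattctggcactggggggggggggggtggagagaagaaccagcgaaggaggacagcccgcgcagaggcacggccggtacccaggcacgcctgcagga
Sema3c promoter, chr5:17574566-17574865, plus strand: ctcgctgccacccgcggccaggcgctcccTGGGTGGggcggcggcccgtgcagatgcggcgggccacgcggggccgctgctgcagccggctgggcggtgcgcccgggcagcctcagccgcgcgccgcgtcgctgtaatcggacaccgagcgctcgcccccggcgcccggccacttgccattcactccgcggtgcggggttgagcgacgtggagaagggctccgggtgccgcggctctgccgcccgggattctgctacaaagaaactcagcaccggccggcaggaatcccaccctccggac
Cntn3 promoter, chr6:102464618-102464917, minus strand: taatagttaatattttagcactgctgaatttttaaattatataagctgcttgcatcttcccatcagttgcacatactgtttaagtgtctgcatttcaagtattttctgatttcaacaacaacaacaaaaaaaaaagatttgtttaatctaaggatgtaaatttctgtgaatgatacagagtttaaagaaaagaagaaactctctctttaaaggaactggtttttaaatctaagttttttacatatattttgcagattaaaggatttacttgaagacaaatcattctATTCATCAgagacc
Neither motif is in the Cntn2 or Robo3 window. Sema3c has the GLI core 221 bases before its RefSeq start, which lies 535 bases inside the gene as counted, and Cntn3 has the Hox and Pbx pair 37 bases after its start. TGATNNAT occurred in a window of 4 of 64 guidance genes (6.25%), against 10.1% of all 27025 genes in the table, and CCACCCA in 7 (10.9%), against 10.6% of all genes. The 4 genes with TGATNNAT were Cntn1, Cntn3, Cntn4 and Sema6d, of which Cntn3 and Sema6d rose, Cntn1 fell and Cntn4 was not called with Hoxb1 in either setting. The 7 with CCACCCA were Plxna2, Robo2, Sema3c, Sema3g, Sema4a, Sema5a and Sema6c, of which Sema3c and Sema5a rose and the other 5 fell with SAG in the absence of Hoxb1. The matches of Cntn1, Cntn4 and Sema6d are at starts 110192, 441282 and 563612 bases inside the gene, and that of Robo2 is at a start outside the gene as counted. A match of letters in these windows is a description and shows no binding.

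In NMPs the loss of Hoxb1 went with smaller changes. Epha8 was the only guidance gene called with a change of at least 2-fold, and Epha6, Plxnc1 and Nrp1 came next, all higher in null cells, against 2.17% of all genes called at least 2-fold higher and 0.692% at least 2-fold lower. The largest falls were in membrane-bound semaphorins (Sema6c, Sema5a, Sema4g and Sema6a). In null cells 14 of 68 were higher and 18 lower, against 14.9% and 13.9% of all 15032 tested genes (28.8% either way). The median change was 0.06, against 0.00 over all genes, and the median size of change 0.24, against 0.13. In NMPs the guidance genes were counted less deeply than others, with a median of 16.3 CPM against 24.2 CPM. The 6 pluripotency markers summed to 516 to 561 CPM in null and 387 to 407 CPM in wild-type NMPs, with 4 of 6 higher, none lower and none at 0. Of the 8 NMP markers, whose sums are given above, 6 were lower and 2 higher in null cells. The 6 floor plate markers summed to 135 to 141 CPM in null and 177 to 184 CPM in wild-type NMPs. Of the 4 floor plate markers tested, 2 were lower and 1 higher. The part of these 3 marker lists in the values of guidance genes was not tested.

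Epha8, a receptor for A-type ephrins, was at 6.1, 5.77 and 6.01 CPM in Hoxb1-null NMPs, against 2.81, 2.34 and 2.77 CPM in wild-type NMPs (log2 change 1.18, SE 0.142, edgeR adjusted p = 1.47e-06), with no overlap. Plxnc1, the receptor of Sema7a, was at 7.45, 8.53 and 7.21 CPM in Hoxb1-null NMPs, against 4.04, 4.21 and 3.86 CPM in wild-type NMPs (log2 change 0.94, SE 0.124, edgeR adjusted p = 5.34e-06), and Nrp1 was at 11.7, 12.5 and 12.8 CPM in Hoxb1-null NMPs, against 7.83, 6.55 and 6.42 CPM in wild-type NMPs (log2 change 0.84, SE 0.104, edgeR adjusted p = 2.16e-06). In both genes all null libraries lay above all wild-type libraries. Epha6 rose at a low level, with 2.09 ± 0.291 CPM in Hoxb1-null NMPs, against 1.04 ± 0.302 CPM in wild-type NMPs (log2 change 0.98, SE 0.239, edgeR adjusted p = 0.00331). Nrp1 is also made by endothelium, and the 6 endothelial markers summed to 29.4 to 38.4 CPM in null and 18.8 to 21.8 CPM in wild-type NMPs, with Emcn at 0 in null cells, and 3 of the 4 tested rose. Their part in the Nrp1 values was not tested.

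Cntn2, which had the largest change with Hoxb1 in progenitors, rose in null NMPs, at 13.8, 14.7 and 18.1 CPM in Hoxb1-null NMPs, against 10.3, 10.7 and 12 CPM in wild-type NMPs (log2 change 0.50, SE 0.102, edgeR adjusted p = 0.000719), with no overlap. Efnb2, the ligand of Ephb4 and other B receptors, was at 37 ± 2.05 CPM in Hoxb1-null NMPs, against 28.3 ± 0.878 CPM in wild-type NMPs (log2 change 0.39, SE 0.0622, edgeR adjusted p = 5.64e-05). Robo1 rose slightly (161 ± 4.94 CPM in Hoxb1-null NMPs, against 138 ± 5.62 CPM in wild-type NMPs, log2 change 0.22, SE 0.0425, edgeR adjusted p = 0.000347), and the -0.01 of Robo2 and 0.40 of Robo3 on the log2 scale did not pass. Among the falls, Sema6c was at 17.1, 17.4 and 22 CPM in Hoxb1-null NMPs, against 28.2, 27.9 and 31 CPM in wild-type NMPs (log2 change -0.63, SE 0.0842, edgeR adjusted p = 6.92e-06), and Sema5a at 14.8, 13.9 and 13.9 CPM in Hoxb1-null NMPs, against 23.1, 20.7 and 20.1 CPM in wild-type NMPs (log2 change -0.58, SE 0.0796, edgeR adjusted p = 7.75e-06). No null library reached a wild-type one in either gene. Slit2 and Slit3 fell (-0.37 and -0.25), while Ntn1 (223 ± 33.1 CPM in Hoxb1-null NMPs, against 209.7 ± 7.61 CPM in wild-type NMPs, log2 change 0.09, edgeR adjusted p = 0.603) and Slit1 (0.37, edgeR adjusted p = 0.08) were not called. Plxna2 fell to 418 ± 12.7 CPM in Hoxb1-null NMPs, against 487 ± 1.65 CPM in wild-type NMPs (log2 change -0.22, SE 0.0348, edgeR adjusted p = 4.67e-05), and Epha4 fell by a similar amount (-0.29). Epha1, the leading gene per length, fell to 253 ± 11.3 CPM in Hoxb1-null NMPs, against 291 ± 0.619 CPM in wild-type NMPs (log2 change -0.20, SE 0.0383, edgeR adjusted p = 0.000313). Epha2 stood at 158 ± 12.4 CPM in Hoxb1-null NMPs, against 155 ± 1.47 CPM in wild-type NMPs and was not called (log2 change 0.02, edgeR adjusted p = 0.746), and Nrp2 at 136 ± 8.31 CPM in Hoxb1-null NMPs, against 133 ± 7.64 CPM in wild-type NMPs was not either (0.04).

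Other rises in null NMPs were those of Ephb3, Sema4b and Ephb2 (log2 changes 0.31, 0.28 and 0.25), and other falls those of Sema4g, Sema6a, Plxna3, Epha7, Efna1, Plxna1 and Ephb4 (between -0.46 and -0.11). None of the 6 tested class 3 semaphorins and none of the 3 netrins was called at that threshold. Several calls were lost under alternatives. Calls of Unc5d (0.59, edgeR adjusted p = 0.0426), Unc5a (0.49, 0.0332), Cntn1 (0.56, 0.0302) and Efna5 (-0.23, 0.0362) were lost with DESeq2 and without some libraries, with adjusted p up to 0.19, 0.193, 0.168 and 0.164. Those of Epha5, Ephb6, Sema5b and Unc5c were lost without at least 1 library, and that of Epha5 with DESeq2 as well (adjusted p up to 0.0583, 0.0745, 0.0571 and 0.085). Of the 26 genes called both here and with Hoxb1 in progenitors without SAG, 14 had opposite signs (53.8%), and over all genes 56.7% did, these comparisons sharing no library. Hoxb1 is lost in the first comparison and gained in the second, so opposite signs mean the same direction relative to Hoxb1.

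**Figure D4:**
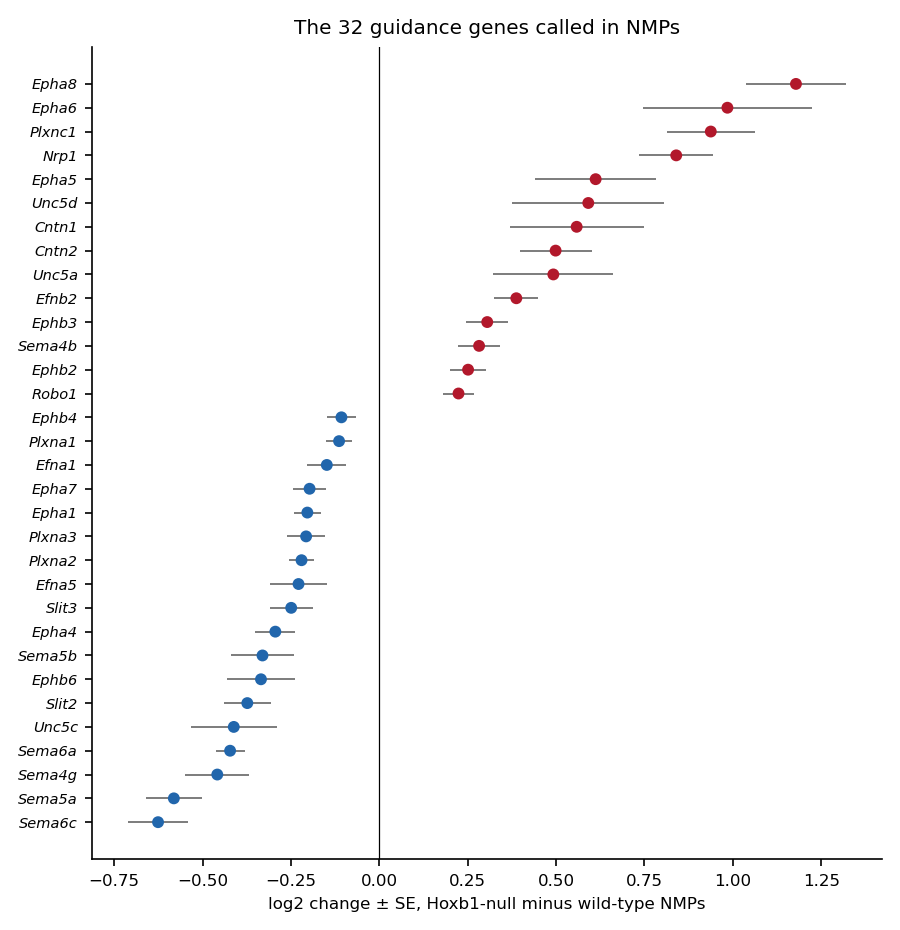
Log2 change with its SE, Hoxb1-null minus wild-type NMPs, for the 32 guidance genes with an adjusted p under 0.05, ordered by change. Epha8 (1.18) is highest and Sema6c (-0.63) lowest.

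With SAG, Ntn1 and all 3 Slits rose whether or not Hoxb1 was expressed, while Dcc, Unc5d, Robo1, Robo2 and Robo3 fell in both settings. In Hoxb1-expressing progenitors 20 of 72 were higher and 46 lower with SAG, against 36.4% and 35.8% of all tested genes (72.2% either way). Without Hoxb1, 23 were higher and 44 lower, against 36.5% and 36.3% (72.7% either way). Changes of at least 2-fold were 8 up and 20 down with Hoxb1, against 7.59% and 7.64% of all genes, and 3 up and 19 down without Hoxb1, against 7.46% and 7.43%. The median changes were -0.40 and -0.37, against 0.01 and 0.01 over all genes. All of these contrasts run across the 2 library sets, from which SAG cannot be told apart.

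Ntn1 rose 2.71-fold in the presence of Hoxb1 (log2 change 1.44, SE 0.0319, edgeR adjusted p = 2.84e-33) and 3.59-fold in its absence (log2 change 1.84, SE 0.0314, edgeR adjusted p = 2.62e-37). Slit1 was at 197 ± 5.48 CPM in Hoxb1+SAG progenitors, against 81.8 ± 3.97 CPM in Hoxb1 progenitors (log2 change 1.27, SE 0.0399, edgeR adjusted p = 1.01e-27), and at 211 ± 9.71 CPM in SAG progenitors, against 93.1 ± 3.79 CPM in control progenitors (log2 change 1.18, SE 0.039, edgeR adjusted p = 5.88e-27). Slit2 rose by similar amounts (0.88 and 0.91 on the log2 scale), and Slit3 by 1.37 and 0.71. Floor plate markers moved with them: of 6, 5 rose and 1 fell with SAG in Hoxb1-expressing cells and 6 rose in cells without Hoxb1, with summed levels as given above. The part of floor plate cells in the ligand values was not tested.

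Robo3 showed the largest change of any guidance gene with SAG. Its level fell 27.5-fold in Hoxb1-expressing cells (log2 change -4.78, SE 0.0804, edgeR adjusted p = 1.01e-17) and 15.8-fold in cells without Hoxb1 (log2 change -3.98, SE 0.0965, edgeR adjusted p = 1.46e-15), and no library with SAG came near one without. Dcc fell 5.86-fold (log2 change -2.55, SE 0.0511, edgeR adjusted p = 2.44e-34) and 3.05-fold (log2 change -1.61, SE 0.044, edgeR adjusted p = 1.18e-29), and Unc5d by 2.35 and 1.83 on the log2 scale. Epha5 and Epha10, receptors of neurons, fell as well, Epha5 to 12.9 ± 1.35 CPM in Hoxb1+SAG progenitors, against 41.4 ± 1.87 CPM in Hoxb1 progenitors, and to 13.4 ± 0.405 CPM in SAG progenitors, against 48.9 ± 5.57 CPM in control progenitors, and Epha10 by 1.81 and 2.11. Cntn6 fell 5.46-fold and 8.98-fold. Efna5 and Efnb2 fell in both settings (-1.08 and -1.63 for Efna5, -1.45 and -1.21 for Efnb2). Postmitotic neuron markers were also lower with SAG (8 of 10 fell with Hoxb1 and 9 of 10 without, with the sums given above), and their part in the receptor values was not tested.

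Semaphorins moved in both directions with SAG. Sema3e rose 2.51-fold with Hoxb1 and 2.7-fold without (log2 change 1.33, SE 0.137, edgeR adjusted p = 2.51e-11 and log2 change 1.43, SE 0.103, edgeR adjusted p = 8.09e-16). Sema3d and Sema3c rose most where Hoxb1 was present (log2 changes 2.37 and 1.41, against -0.16 and 0.48 where it was absent), the last of Sema3d not being called. These differences equal those of the Hoxb1 effects, given above for Sema3d and 0.94 (SE 0.0992, edgeR adjusted p = 3e-10) for Sema3c. Sema3a and Sema3g fell in both settings, Sema3g to under 0.5 CPM. Of the 13 membrane-bound semaphorins, 10 fell and 2 rose in both settings, the 2 being Sema4d and Sema5a. Of the 9 mesenchymal markers, whose sums are given above, 8 rose and 1 fell with SAG in Hoxb1-expressing cells and 8 rose in cells without Hoxb1. The part of such cells in these values was not tested. Nrp1 rose in both settings (0.97 and 0.20), Nrp2 rose with Hoxb1 (0.20) and fell without (-1.29), and 6 and 7 of 8 plexins fell. Of 14 Eph receptors, 2 rose and 10 fell with Hoxb1, and 5 rose and 7 fell without, Epha2 rising only in the first (0.96, against 0.11 where Hoxb1 was absent). Of all tested genes, 36.4% rose and 35.8% fell with SAG in Hoxb1-expressing cells, and 36.5% and 36.3% in cells without Hoxb1. Cntn2 rose with SAG in the presence of Hoxb1 (log2 change 1.63, SE 0.0408, edgeR adjusted p = 2.05e-31) and fell in its absence (log2 change -2.46, SE 0.0488, edgeR adjusted p = 5.31e-35). 8 guidance genes had such opposite calls among 63 called in both (12.7%), against 6.1% over all genes.

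**Figure D5:**
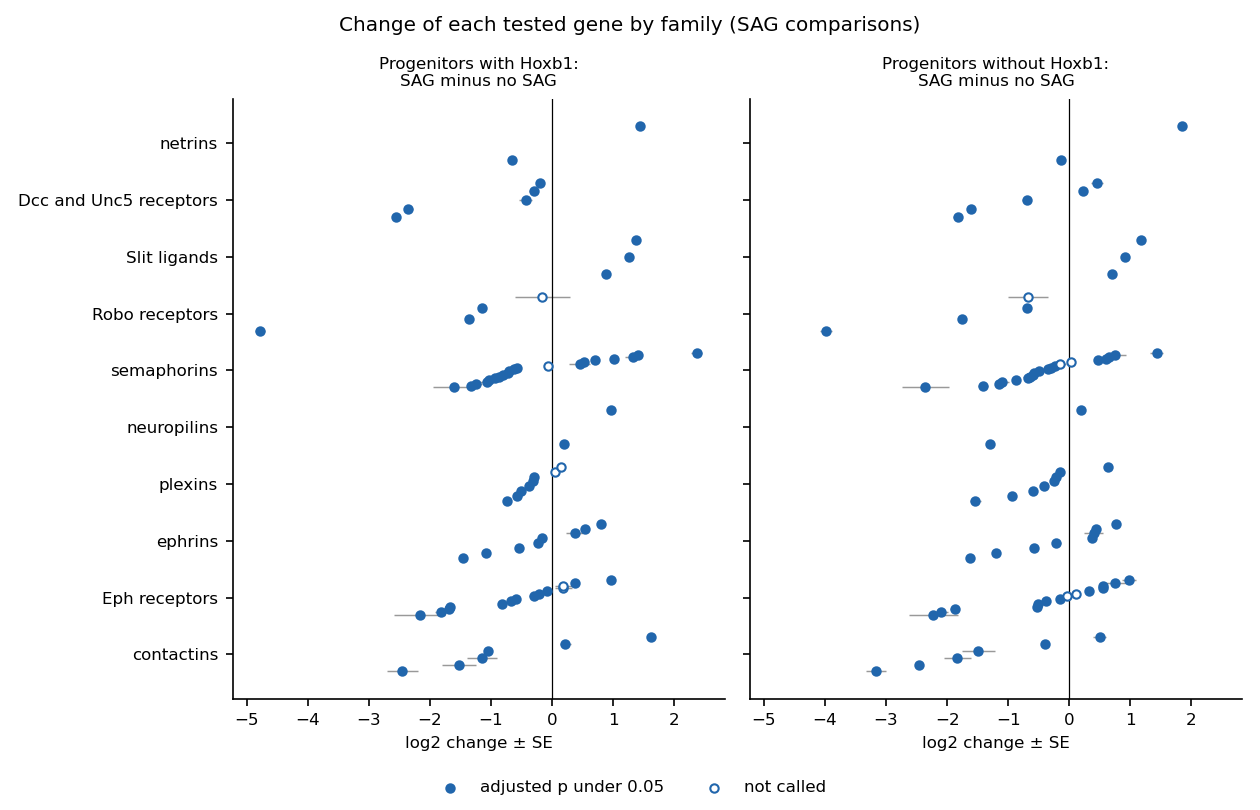
Log2 change with its SE for each tested guidance gene by family, SAG minus no SAG, in progenitors with Hoxb1 (left) and without Hoxb1 (right). Filled points passed an adjusted p under 0.05. All 3 Slits and 1 netrin (Ntn1) lie to the right of 0 in both panels, and Robo3 is lowest at -4.78 and -3.98.

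Partners and downstream genes of the same pathways were read from a list of 71 chosen by function. With Hoxb1 and SAG, 34 of 70 tested rose and 12 fell, and without SAG 32 rose and 17 fell. The shares of all tested genes are those given above. The largest changes with SAG were in Draxin, a secreted repellent that binds Dcc (38.8 ± 1.26 CPM in Hoxb1+SAG progenitors, against 6.89 ± 0.441 CPM in SAG progenitors, log2 change 2.50, SE 0.0665, edgeR adjusted p = 4.45e-30), Nell1 (9.79 ± 0.634 CPM in Hoxb1+SAG progenitors, against 3.09 ± 0.555 CPM in SAG progenitors, log2 change 1.67, SE 0.109, edgeR adjusted p = 1.24e-16), Flrt1 and Gap43. Flrt1, of a family of membrane proteins that bind Unc5 receptors, rose with a log2 change of 1.58, and Gap43, a growth cone protein, with 1.25. Without SAG, Draxin rose again (79.2 ± 1.86 CPM in Hoxb1 progenitors, against 20.5 ± 1.75 CPM in control progenitors, log2 change 1.95, SE 0.0592, edgeR adjusted p = 6.03e-28), as did Nell1 (log2 change 2.22), while Cntnap3, a contactin-associated protein, fell (0.728 ± 0.365 CPM in Hoxb1 progenitors, against 3.57 ± 0.734 CPM in control progenitors, log2 change -2.28, SE 0.279, edgeR adjusted p = 5.56e-09) and Flrt3 fell (53.8 ± 5.13 CPM in Hoxb1 progenitors, against 123 ± 3.23 CPM in control progenitors, log2 change -1.19, SE 0.0493, edgeR adjusted p = 9.12e-23). In NMPs 13 of 64 rose and 15 fell in null cells, and the largest changes were rises of Flrt2, Cntnap3, Ablim3 and Ptprz1, with log2 changes of 0.94, 0.94, 0.93 and 0.93. With SAG, 47 of 70 fell in Hoxb1-expressing cells and 51 of 70 in cells without Hoxb1, and 9 rose in each.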

How the data were processed

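Per the labels, polyadenylated RNA went into strand-specific libraries with 15 cycles of PCR, and, per the submitters' processing notes, bcl2fastq 1.8.2, featureCounts 1.4.6 and build mm10 were used. Aligner, annotation release and strand setting: not given in the sources used here. What the authors deposited are raw counts, 1 value per Ensembl gene ID and library, not normalized. A further deposited column, the summed exon length in bases, was used as is for RPKM, another unit computed here from the counts.

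Symbols were matched by Ensembl ID for 35449 of 37224 genes. In R 4.3.3, edgeR 4.0.16 was run with filterByExpr by group, TMM factors, estimateDisp, robust glmQLFit and glmQLFTest, p-values being adjusted by Benjamini and Hochberg across every gene in a fit and called under 0.05. The 6 NMP libraries (15032 genes) and the 12 progenitor libraries (16238 genes, 1 mean per group) were fitted separately, so that CPM of NMPs and of progenitors were scaled apart and no test crosses them. SE is the log2 change over the square root of F. Total counts per library are given in the report, and the precision of low counts is limited by them. The procedure was tested on simulated data for the Hoxb1 comparisons only, with far fewer changed genes than were called here. The SAG contrasts and the difference of the Hoxb1 effects were not simulated.

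Genes named are called members reaching 1 CPM in their higher group, up to 25 a comparison by size of change, plus 19 members named whatever their values, and the 4 largest called genes of the list of 71 in each Hoxb1 comparison. Other members are given to complete a family. The members, lists and rules were chosen with earlier results of these data known. Alternatives were DESeq2 1.42.0, upper-quartile scaling, a filter of at least 1 CPM in 3 libraries, no filter, the replicate number as a block, all 18 libraries together, the 6 libraries of a comparison alone, and leaving out each library.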

Additional observations from a re-analysis of the deposited data

Results flagged for a closer look

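In 40 genes the Hoxb1 effect differed between progenitors with and without SAG by the test of the difference itself (edgeR adjusted p under 0.05). Values are the difference of the log2 changes, with SAG minus without SAG, so that a positive value means a higher effect with SAG. Among contactins it was 4.09 for Cntn2 and -0.66 for Cntn1. Semaphorins gave 2.53 for Sema3d, 1.12 for Sema3f, -0.96 for Sema6b, 0.94 for Sema3c, -0.77 for Sema4a, -0.60 for Sema7a, 0.54 for Sema3a, 0.41 for Sema5a and -0.40 for Sema4b. For the neuropilins the difference was 1.50 for Nrp2 and 0.77 for Nrp1, and for plexins 1.68 for Plxna4, -0.60 for Plxnd1, 0.38 for Plxna3, -0.32 for Plxna2 and -0.22 for Plxnb1. In the netrin group it was -0.51 for Ntn4, -0.41 for Ntn1, -0.94 for Dcc, -0.89 for Unc5a, -0.52 for Unc5d, -0.41 for Unc5b and 0.40 for Unc5c. Slit and Robo genes gave 0.67 for Slit3, -0.80 for Robo3, -0.47 for Robo1 and 0.40 for Robo2. Ephrins had 0.54 for Efna5, -0.52 for Efnb3 and -0.25 for Efnb2, and Eph receptors -1.23 for Ephb1, -1.14 for Epha3, 0.85 for Epha2, -0.79 for Epha1, -0.66 for Epha7, -0.64 for Ephb2, 0.30 for Epha4 and -0.21 for Ephb3. The 2 sets of libraries differ in library numbers and depth as well as in SAG, which cannot be told apart. No group held enough libraries for a test of single libraries that stand apart.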

How the results depend on the processing

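Each count of called guidance genes stayed within 1.5 times of its main value under the alternatives run. Over all alternatives, 28 to 31 (main 29) were higher and 23 to 26 (main 25) lower with Hoxb1 in SAG-treated cells, 31 to 34 (main 33) and 24 to 27 (main 26) without SAG, 16 to 18 (main 16) and 24 to 26 (main 24) in the difference, 17 to 21 (main 20) and 45 to 46 (main 46) with SAG in Hoxb1-expressing cells, 22 to 24 (main 23) and 43 to 44 (main 44) without Hoxb1, and 10 to 16 (main 14) and 13 to 20 (main 18) in NMPs. Of 3671 values of single genes, 3603 kept direction and side of the threshold, 47 lost a call, 9 gained one and 12 changed sign, all of these in genes not called. Leaving out each library, these ranged from -0.00785 to 0.0835 for Nrp2, -0.0616 to 0.0237 for Robo2, -0.0302 to 0.18 for Ntn1 and -0.021 to 0.0892 for Epha2 in NMPs, -0.11 to 0.0040 for Unc5c with Hoxb1 and SAG, and -0.0459 to 0.00821 for Slit2 in the difference. With upper-quartile scaling Robo2 in NMPs was at 0.00913. Causes were not tested. Same-numbered libraries did not deviate together throughout (correlations 0.225, 0.21 and 0.0122 for Hoxb1+SAG and SAG progenitors, and not every library was closest to its own number). With the replicate block, 30 higher and 25 lower were called with Hoxb1 and SAG, 33 higher and 26 lower with Hoxb1 alone, and 14 higher and 17 lower in NMPs, where the block lost Unc5d and Ephb4 and brought in Robo3. With Hoxb1 and SAG it brought in Sema7a. Depth limits Cntn4, Cntn5, Cntn6, Robo4, Epha6 and Sema3g most, with few counts in some groups.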
